A study of Mus musculus with 12 samples.

Results

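Mouse embryonic fibroblasts that received the same pair of viral vectors in opposite order were compared by expression array. The 6 arrays compared, of 12 in the series, were all those labelled as carrying both vectors. On 3 arrays the cells had received a short hairpin RNA that targets p53 (shp53) and then an oncogenic RAS (RASV12); these are called shp53-first. On the other 3 arrays RASV12 came before shp53; these are called RASV12-first. All cells were primary fibroblasts grown from mid-gestation C57BL/6 embryos, and all groups of this comparison held both vectors. The other 6 arrays, 3 with shp53 alone and 3 with RASV12 alone, are used here for reference. The series title contrasts transformation of senescent cells with that of cells that had not been senescent. The design text calls the 3 samples of a group independent biological replicates. The labels do not name the promoters of the vectors, the RAS gene, the time between the infections or the embryos behind each culture, so the order of the vectors and the culture cannot be told apart.

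Fibroblasts keep a memory of where in the body they came from, held mainly in the Hox genes, which encode transcription factors laid out along the body axes, and in T-box, forkhead and homeobox factors of the limb, face and trunk. They also secrete matrix, growth factors and cytokines that act on neighbouring cells. Oncogenic RAS in normal fibroblasts is known to cause a stable growth arrest, senescence, that is accompanied by secretion of cytokines and proteases, and loss of p53 is known to allow RAS-expressing fibroblasts to keep dividing. The order of the vectors therefore decides whether p53 is present when RAS is first expressed.

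Each array read 1 RNA sample in 1 colour. Between 56.6% and 62.4% of the spots that are not controls were well above background on the 6 arrays of the comparison, and with 3 arrays a group precision is limited by their number. The log2 signal below is the log2 of the processed signal minus the array's 75th percentile, so that 0 is the level of a gene at that percentile. Values of a group are listed in the order of replicate numbers 1, 2 and 3, and levels of different genes are not compared, because each probe has its own response. The order difference is the log2 signal of RASV12-first minus that of shp53-first, with the standard error from limma. A gene was called at an adjusted p under 0.05, which is limma's p with Benjamini-Hochberg adjustment over all genes tested, with the replicate number as a block. Within each order the arrays of numbers 2 and 3 lay close together (r = 0.995 and 0.996 across genes) and number 1 stood apart (r from 0.964 to 0.969 with the others), while r between orders was 0.914 to 0.949. Nothing in the labels says what separates number 1 from the others.

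The hairpin's target and the fixed genes were read first. Trp53, which encodes p53, read -3.98, -3.43 and -3.44 on the shp53-first arrays and -4.14, -4.01 and -3.83 on the RASV12-first arrays, against means of -3.27 with shp53 alone and -0.56 with RASV12 alone. The orders overlapped, and their difference of -0.38 ± 0.13 did not pass the test (adjusted p = 0.113). Mdm2, a p53 target that encodes the ligase that degrades p53, read 4.15, 4.10 and 4.13 in shp53-first and 4.57, 4.71 and 4.88 in RASV12-first. It was called higher by 0.59 ± 0.12 (adjusted p = 0.038) and did not pass without replicate number 2 (0.232) or 3 (0.197). Cdkn1a, which encodes the cell-cycle inhibitor p21, differed by -0.44 ± 0.11 (adjusted p = 0.060), and its second probe by -1.43. Its groups did not overlap, as in 32.7% of all genes tested. Cdkn2a, which encodes p16 and p19Arf, differed by 0.31 ± 0.11 (adjusted p = 0.12), and Cdkn2b, which encodes p15, by -0.23 ± 0.11 (adjusted p = 0.20). The probe for mouse Hras read 1.34, 2.08 and 1.99 in shp53-first and 0.79, 1.47 and 1.64 in RASV12-first. It was called lower by a difference of -0.50 ± 0.12 (adjusted p = 0.049) although the groups overlapped, and the call was lost without any 1 of the 3 replicate numbers (adjusted p from 0.058 to 0.292). Whether this probe detects the RAS transgene is not stated. Nras differed by 0.59 ± 0.12 (adjusted p = 0.038), with probes that ranged from 0.18 to 0.59 and a call lost without number 2 (0.246) or 3 (0.195).

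Of 13420 named genes tested, 2770 were called (20.6%), 1365 higher (10.2%) and 1405 lower (10.5%) in RASV12-first, and 5101 had an unadjusted p under 0.05. The median order difference of all genes tested was 0.02. Scaled to each array's median instead, that median was 0.27 and 72.5% of 4125 calls were higher, against 49.3% with the 75th percentile. Large differences were mostly losses in RASV12-first: of genes called and at least 4-fold apart, 139 were higher and 506 lower, and at 16-fold 14 were higher and 144 lower. In 83 of these 144 genes no RASV12-first array was well above background. To be tested, a gene had to exceed background clearly on every array of 1 order or both, and 625 genes passed only in shp53-first and 355 only in RASV12-first. Such a gene was admitted by the order in which it was high. Among the 12440 genes well above background on all 6 arrays, 1235 were higher and 1014 lower. Where the dim order had no array above background, the fold is a lower bound, written "at least": the bright group's mean over the mean, in the other group, of the higher of the probe's own signal and the array's lowest signal well above background. Where 1 or 2 arrays of the dim order were, their number is given beside the fitted difference, which then rests partly on signal near background. The number of calls depended on the arrays: it was 3934 without replicate number 1, 540 without number 2 and 1040 without number 3. Without the replicate block 1351 genes were called, 509 higher and 842 lower.

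The Hox genes differed between the orders by cluster. Of 39 genes, 30 passed the filter and 24 were called (80%), 12 in each direction, and 7 of the 30 had passed in 1 order only; of the other 23, 11 were higher and 6 lower. In the HoxA cluster 8 of 11 were lower and 0 higher, with a median difference of -2.25. Of these 11, 3 had passed in shp53-first only, and of the other 8, 5 were lower. In HoxB 6 of 8 were higher and 0 lower (median 0.97), in HoxC 5 of 6 were higher and 1, Hoxc10, lower (median 3.80), and in HoxD 1 of 5, Hoxd8, was higher and 3, Hoxd3, Hoxd10 and Hoxd11, were lower. All 8 HoxB genes had passed in both orders. In HoxC 1 gene had passed in shp53-first only and 1 in RASV12-first only, and the other 4 were higher. In HoxD 2 had passed in shp53-first only, and of the other 3, 1 was higher and 1 lower. Hoxd10 and Hoxd11 were not well above background on any RASV12-first array, and Hoxc10 was on 2 of them. After another background correction (normexp) the differences of Hoxc10, Hoxd3, Hoxd10 and Hoxd11 had the other sign and did not pass. Hoxa11, which patterns the forearm and the reproductive tract, read 1.38, 0.27 and 0.10 on the shp53-first arrays and was not well above background on any RASV12-first array, a difference of at least 95.1-fold (adjusted p = 5.6e-04). Hoxa10 read -0.47, -1.68 and -1.72 in shp53-first and was again not well above background in RASV12-first, at least 26.0-fold lower (adjusted p = 5.6e-04). Hoxa13, the most 5′ gene of the cluster, was at least 6.10-fold lower. Genes toward the 3′ end of HoxA were lower too. Hoxa2 read -0.64, -0.70 and -0.83 against -5.12, -5.38 and -5.38, a difference of -4.57 ± 0.11 (adjusted p = 5.6e-04), and Hoxa3 and Hoxa5 were lower by -2.25 ± 0.12 and -2.29 ± 0.13. Hoxa7 (-0.33 ± 0.16, adjusted p = 0.22) did not pass, and its groups overlapped.

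HoxC genes ran the other way. Hoxc8, which acts in the thorax, read -5.19, -5.12 and -5.33 in shp53-first, where 2 arrays were well above background, and -0.64, -0.38 and -0.50 in RASV12-first. All RASV12-first arrays lay far above all shp53-first arrays, and the difference was 4.71 ± 0.12 (adjusted p = 5.6e-04). Hoxc6 read 1.00, 0.31 and 0.12 against 4.86, 4.61 and 4.35 (4.13 ± 0.14, adjusted p = 6.7e-04), and Hoxc4 read -2.79, -3.33 and -2.50 against 0.92, 0.56 and 0.72 (3.61 ± 0.17, adjusted p = 0.0011). Hoxc9 and Hoxc5 were higher by 4.00 ± 0.30 and 3.43 ± 0.22. In HoxB the differences were smaller: Hoxb9 was higher by 2.61 ± 0.33 (adjusted p = 0.012) and Hoxb5 by 1.11 ± 0.11 (adjusted p = 0.0065). Hoxb5 was not called without number 2 (adjusted p = 0.089). The calls of the other HoxA and HoxC genes valued here, and of Hoxb9, were kept with any 1 replicate number left out. Over the whole Hox list, 14 genes were called without number 2 and 17 without number 3. With either vector alone Hoxc8 read -1.77 (shp53) and -2.48 (RASV12), so that both single-vector means lay between the orders. The same held for 10 of the 30 Hox genes tested, 5 of them among the 6 HoxC genes, against 8.55% of all genes tested. A large order difference by itself makes such means likelier. They were found in 20.4% of all genes called higher and 22.1% of those called lower. Among called genes at least 4-fold apart, the shares were 29.5% of the higher and 33.8% of the lower ones. Among Hox partner proteins, Pknox2 was at least 17.2-fold lower (adjusted p = 0.0021), while Pbx3, Meis2 and Meis1 differed by 0.73 ± 0.11, 0.58 ± 0.11 and -0.65 ± 0.14 and lost their calls without number 2 (adjusted p from 0.147 to 0.245).

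**Figure D1:**
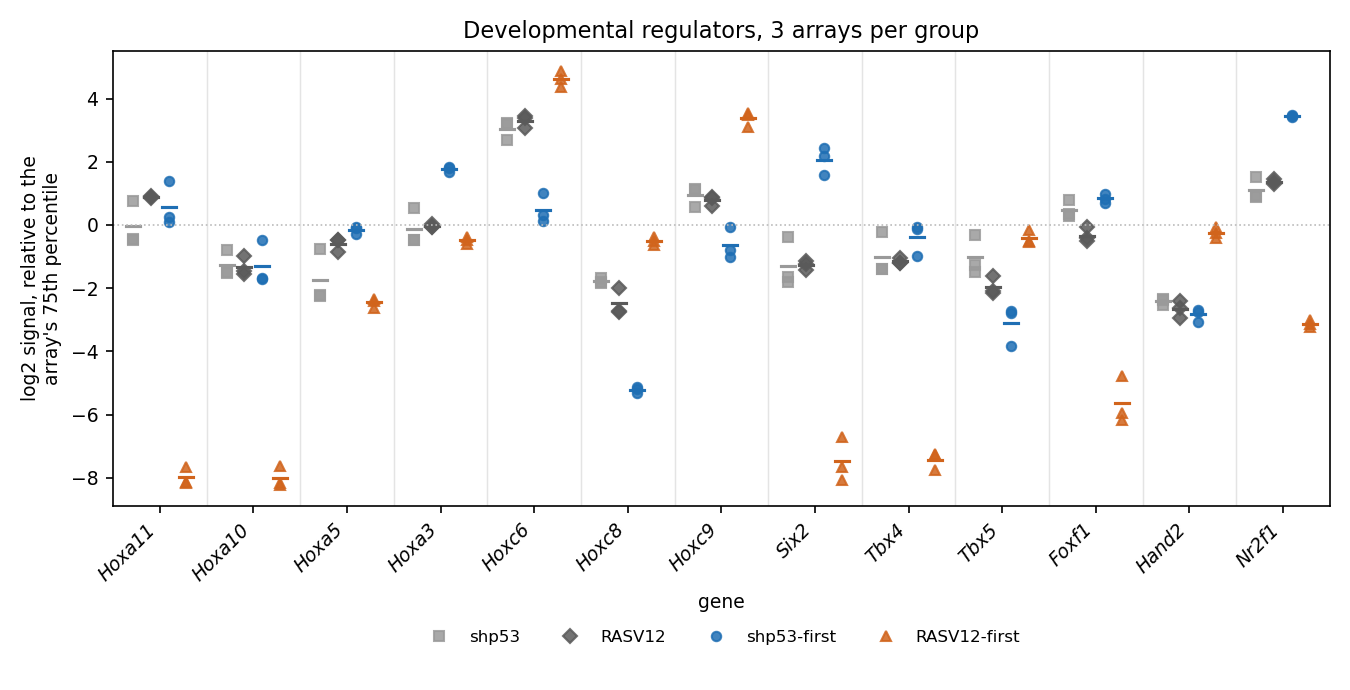
Log2 signal (vertical axis, relative to each array's 75th percentile) of 13 developmental regulators on the 12 arrays; each point is 1 array and each short line the mean of a group of 3. Hoxa11, Hoxa10, Six2 and Tbx4 were not well above background in RASV12-first only, Hoxc6, Hoxc8, Hoxc9, Tbx5 and Hand2 were highest in RASV12-first, and the means of shp53 alone and of RASV12 alone lay between those of the orders in each gene but Hoxa10 and Hoxa11.

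Transcription factors that pattern limb, face and trunk were called in 40 of 72 genes that passed the filter, of 113 on the list: 12 higher and 28 lower, with a median difference of -0.61. Of the 72, 19 had passed in shp53-first only and 0 in RASV12-first only; of the other 53, 11 were higher and 12 lower. The T-box genes had 6 of 8 lower and 1 higher, but 5 of the 8 had passed in shp53-first only, and of the other 3 there was 1 lower and 1 higher. Tbx4, the hindlimb T-box gene, read -0.98, -0.08 and -0.13 in shp53-first and was not well above background on any RASV12-first array, at least 48.3-fold lower (adjusted p = 4.1e-04). Its forelimb counterpart Tbx5 went the other way, from -3.82, -2.72 and -2.77 to -0.16, -0.50 and -0.54 (2.70 ± 0.34, adjusted p = 0.011), a call lost without number 2 (adjusted p = 0.063). Tbx1, a pharyngeal arch gene, read 1.52, 1.81 and 1.72 in shp53-first and was at least 204-fold lower, and Tbx18, a gene of somites and mesenchyme, was at least 14.7-fold lower. All 3 arrays of each order were apart from all 3 of the other in each of these T-box genes.

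Six2, which maintains progenitors in kidney and tendon, read 1.60, 2.43 and 2.18 in shp53-first, was not well above background in RASV12-first and was at least 266-fold lower (adjusted p = 0.0010). Among forkhead genes 6 of 9 were lower and 0 higher, and 2 of the 9 had passed in shp53-first only. Foxf1, a target of Hedgehog signals in gut and lung mesenchyme, read 0.83, 0.99 and 0.69 against -4.79, -5.97 and -6.18. Only 1 RASV12-first array was well above background, so the fitted difference (-6.48 ± 0.31, adjusted p = 0.0011) rests on signal near background. Foxd2 was lower by -2.39 ± 0.12 (adjusted p = 0.0013) and Foxf2 by -2.47 ± 0.28 (adjusted p = 0.0084).

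Both paired box genes tested were lower: Pax3, of the neural crest and muscle, by -4.36 ± 0.27 (adjusted p = 0.0021), and Pax1, of the sclerotome, by at least 7.60-fold. Mkx, a tendon homeobox gene, read -0.59, 0.04 and 0.07 against -4.69, -4.04 and -4.36 (-4.21 ± 0.13), and the limb gene Shox2 was at least 7.02-fold lower. The genes that were higher included Irx3 (3.09 ± 0.16), Irx2 (2.25 ± 0.12) and Meox1 (1.95 ± 0.12), homeobox genes of limb, neural and somite patterning, and Hand2, a limb and heart factor (2.58 ± 0.18). Irx1, next to Irx2 in the genome, was higher by 2.46 ± 0.23, from 2 pairs because number 3 of RASV12-first was missing, and was not called without number 2 (adjusted p = 0.076). The list of patterning factors had 26 calls without number 2 and 35 without number 3. Both single-vector means lay between the orders in 14 of the 72.

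Nuclear receptors, transcription factors that bind hormones and lipids, were called in 10 of 30 tested genes, 2 higher and 8 lower (median -0.12). Nr2f1, an orphan receptor of neural crest and mesenchyme, was among the steadiest differences: 3.47, 3.44 and 3.41 in shp53-first and -3.23, -3.01 and -3.15 in RASV12-first, lower by a difference of -6.57 ± 0.12 (adjusted p = 3.3e-04). Rarb, a retinoic acid receptor, was lower (-3.33 ± 0.30, adjusted p = 0.0051), as was Pparg, the fat cell regulator (-1.84 ± 0.12, adjusted p = 0.0023). The 2 that were higher were the receptors for progesterone and estrogen. Pgr was not well above background on any shp53-first array, read -1.02, -0.49 and -0.43 in RASV12-first and was at least 37.3-fold higher (adjusted p = 0.0048). Esr1 was higher by 2.52 ± 0.24 (adjusted p = 0.0054), and missed the threshold without number 2 (adjusted p = 0.052).

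Bone morphogenetic proteins (BMPs) are secreted ligands that signal through SMAD proteins and turn on Id and inhibitory Smad genes. Of 30 BMP pathway genes tested, 2 were higher and 11 lower, with a median of -0.62. Among the ligands 4 of 9 were lower and 0 higher, and these 4 had passed the filter in shp53-first only. Bmp4 read 1.97, 0.22 and 0.08 in shp53-first and was not well above background on any RASV12-first array, at least 107-fold lower (adjusted p = 0.0022), and Gdf6 and Gdf10 were at least 14.6-fold and 15.0-fold lower. Among the 8 targets 5 were lower and 0 higher, with a median of -1.43. Smad6, an inhibitor that BMP signals induce, read -1.01, -0.93 and -0.91 against -4.52, -3.98 and -3.97 (-3.21 ± 0.15, adjusted p = 0.0010), and Atoh8 was lower by -1.85 ± 0.13 (adjusted p = 0.0029). Id4 was lower by -2.19 ± 0.20 and Id2 by -0.59 ± 0.11, both not called without number 2 (adjusted p = 0.055 and 0.18). Id1 (-0.69 ± 0.21, adjusted p = 0.085) and Id3 (-1.10 ± 0.30, adjusted p = 0.069) did not pass. In both genes all RASV12-first arrays lay below all shp53-first arrays, as in 15.7% of all genes tested. Of 8 antagonists 2 were higher and 1 lower. Fstl3, which binds activins, read 0.83, -0.05 and -0.10 against 2.72, 1.58 and 1.68 (1.77 ± 0.12, adjusted p = 0.0023). Grem1 differed by -1.01 ± 0.38 (adjusted p = 0.14). The pathway list had 6 calls without number 2 and 10 without number 3.

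In the TGF beta and activin pathway 3 of 24 genes were higher and 4 lower (29.2% called, against 20.6% of all genes tested, median -0.13). Ltbp2, a matrix protein related to those that hold latent TGF beta, read 4.53, 5.02 and 5.15 against 1.59, 1.81 and 1.84 (-3.15 ± 0.13, adjusted p = 8.4e-04), and Eng, a co-receptor for TGF beta and BMPs, was lower by -3.06 ± 0.11 (adjusted p = 7.3e-04). Inhba, the activin A subunit, was higher by 1.27 ± 0.26 (adjusted p = 0.038) and not called without number 2 (0.21) or 3 (0.14). Wnt pathway genes were called in both directions, 8 higher and 9 lower of 38, with a median of -0.01. Of the 38, 6 had passed in shp53-first only and 3 in RASV12-first only, and of the other 29, 7 were higher and 5 lower. Sfrp1, a secreted Wnt inhibitor, was at least 8.21-fold lower, and the receptor Fzd1 was lower by -2.11 ± 0.12 (adjusted p = 0.0018). Rspo4, an enhancer of Wnt signals, was higher by 1.71 ± 0.13 (adjusted p = 0.0034), as was the Wnt inhibitor Apcdd1 (1.48 ± 0.13, adjusted p = 0.0048).

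Of 12 FGF pathway genes 2 were higher and 6 lower (median -0.61). Of the 12, 2 had passed in shp53-first only, and of the other 10, 2 were higher and 4 lower. Fgf10 and Fgf7, growth factors that mesenchyme sends to epithelium, were lower by -1.40 ± 0.14 and -1.25 ± 0.12 and lost their calls without number 2 (adjusted p = 0.069 and 0.072). Dhh, the one Hedgehog ligand tested, read -1.03, -1.47 and -1.45 in shp53-first and was at least 25.5-fold lower (adjusted p = 7.0e-04). Of 49 axon guidance cues and receptors, which also steer migrating mesenchymal cells, 6 were higher and 14 lower (median -0.21). Of the 49, 2 had passed in shp53-first only and 2 in RASV12-first only, and of the other 45, 6 were higher and 12 lower. Slit2, a repulsive cue, read 2.13, 1.27 and 1.25 against -2.60, -2.03 and -2.39 (-3.89 ± 0.31, adjusted p = 0.0036), and the ephrin receptor Epha4 was lower by -2.06 ± 0.14 (adjusted p = 0.0028). Of 12 Notch pathway genes 2 were higher and 0 lower, a share of 16.7% called against 20.6% of all genes tested. The 2 were the receptor Notch2 (1.39 ± 0.12) and Dlk1 (0.52 ± 0.10). Both lost their calls without number 2 (adjusted p = 0.056 and 0.24).

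Interleukins and chemokines had more lower than higher calls in RASV12-first. Of 40 interleukins, colony stimulating factors and related cytokines 25 passed the filter, 5 of them in shp53-first only and 1 in RASV12-first only. Of the 25, 13 were lower and 0 higher, with a median of -1.37, or -0.94 with undetected genes at their bound. Of the 19 well above background on all 6 arrays, 8 were lower. Il6, which acts through the gp130 receptor and is a hallmark of the senescent secretome, read 3.89, 3.30 and 3.21 in shp53-first and -1.34, -0.22 and -0.24 in RASV12-first. The groups were far apart (-4.07 ± 0.40, adjusted p = 0.0062), and Il6 had a mean of 4.47 with RASV12 alone and 1.23 with shp53 alone. Tnfsf11, which encodes the osteoclast factor RANKL, was lower by -4.50 ± 0.13 (adjusted p = 6.4e-04) and Il1f6, an interleukin 1 relative, by at least 13.6-fold. Il11 was lower by -2.91 ± 0.27 but not called without number 2 (adjusted p = 0.053). Lif, of the interleukin 6 family, differed by -0.19 ± 0.25 with overlapping groups (adjusted p = 0.62). Counts for the cytokine list were 6 without number 2 and 9 without number 3.

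Chemokines, which attract leukocytes, had 7 of 17 lower and 2 higher (median -0.75). Cxcl1, a neutrophil attractant, read 4.21, 3.12 and 2.86 against -0.11, -0.77 and -0.69, lower by a difference of -3.92 ± 0.18 (adjusted p = 0.0011). Cxcl5, which binds the same receptor, was lower by -4.68 ± 0.56 (adjusted p = 0.0099) and Ccl11, an eosinophil attractant, by -2.24 ± 0.27 (adjusted p = 0.011). The 2 chemokines that were higher were Ccl12 (2.98 ± 0.42, adjusted p = 0.015) and Ccl5 (0.92 ± 0.14, adjusted p = 0.018). Cxcl1 kept its call with any 1 replicate number left out. The other 4 lost theirs without number 2 (adjusted p from 0.067 to 0.15), and with number 2 left out the list held 1 called chemokine.

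Promoter letters are given for Cxcl1 and Il6 because these were the named cytokine genes whose windows held a match to the NF-kB motif, the site of a factor known to drive cytokine genes. The window was the 250 bases before each start in RefSeq's table (build GRCm38.p6), searched on both strands, and capitals mark the matches. Matches were allowed to overlap, and in Cxcl1 there were 2. The motif was in 8.23% of all 27025 genes with a promoter entry, among interleukins and relatives 1 of 8 called lower and 5 of 7 not called, and among chemokines 1 of 3 called lower and 2 of 6 not called. A match is a description and not a site.
Cxcl1 (chr5:90891149-90891209, plus strand): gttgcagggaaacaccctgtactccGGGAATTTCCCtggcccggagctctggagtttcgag
Il6 (chr5:30013045-30013104, plus strand): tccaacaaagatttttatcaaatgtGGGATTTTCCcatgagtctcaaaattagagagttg

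The other secreted growth factors, hormones and acute-phase proteins showed the same split: 24 of 57 tested were lower and 7 higher (median -0.64). Of the 57, 5 had passed in shp53-first only and 1 in RASV12-first only, and of the other 51, 19 were lower and 7 higher. Among 16 of the 57, which included the acute-phase genes named here and C3, 10 were lower and 0 higher, with a median of -2.29. In this group of 16, 3 had passed in shp53-first only, and of the other 13, 7 were lower. Ptx3, a soluble pattern receptor, read 0.64, -0.09 and -0.17 in shp53-first and was at least 57.4-fold lower in RASV12-first (adjusted p = 0.0044). Lcn2, an iron-binding acute-phase protein, read 6.28, 4.37 and 4.56 against 1.64, 0.09 and 0.01 (-4.49 ± 0.13, adjusted p = 6.3e-04). Saa3, a serum amyloid made by fibroblasts, read 7.34, 7.01 and 7.31 against 3.22, 3.35 and 3.42 (-3.89 ± 0.14, adjusted p = 6.7e-04). In Lcn2 number 1 of both orders was higher than numbers 2 and 3, so that the difference within each number stayed near the same size. The complement factor C3 (-2.57 ± 0.11) was also lower. Among peptides and trophic factors, Nrn1, a neurite growth factor, read 2.57, 2.06 and 1.99 against -4.68, -5.44 and -5.64 (-7.46 ± 0.13, adjusted p = 3.3e-04), Nts, the peptide neurotensin, was lower by -5.93 ± 0.18, and Hgf, a growth factor for epithelium, by -2.79 ± 0.19. Each of the genes named in this paragraph kept its call with any 1 replicate number left out.

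In the insulin-like growth factor axis 7 of 14 genes were lower and 0 higher (median -0.93). Igf2, the fetal growth factor, read 0.75, -0.19 and -0.29 against -4.56, -4.10 and -4.26 (-4.40 ± 0.32, adjusted p = 0.0031). Of its binding proteins 5 of 6 were lower, with Igfbp5 at 5.91, 4.84 and 4.78 against 2.03, 1.09 and 1.21 (-3.73 ± 0.12, adjusted p = 6.4e-04), Igfbp7 at -2.22 ± 0.16 and Igfbp4 at -2.08 ± 0.14. The 3 receptors of the list were not called, with a median of 0.01. These calls were kept with any 1 replicate number left out, and the list held 5 calls without number 2 and 7 without number 3.

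**Figure D2:**
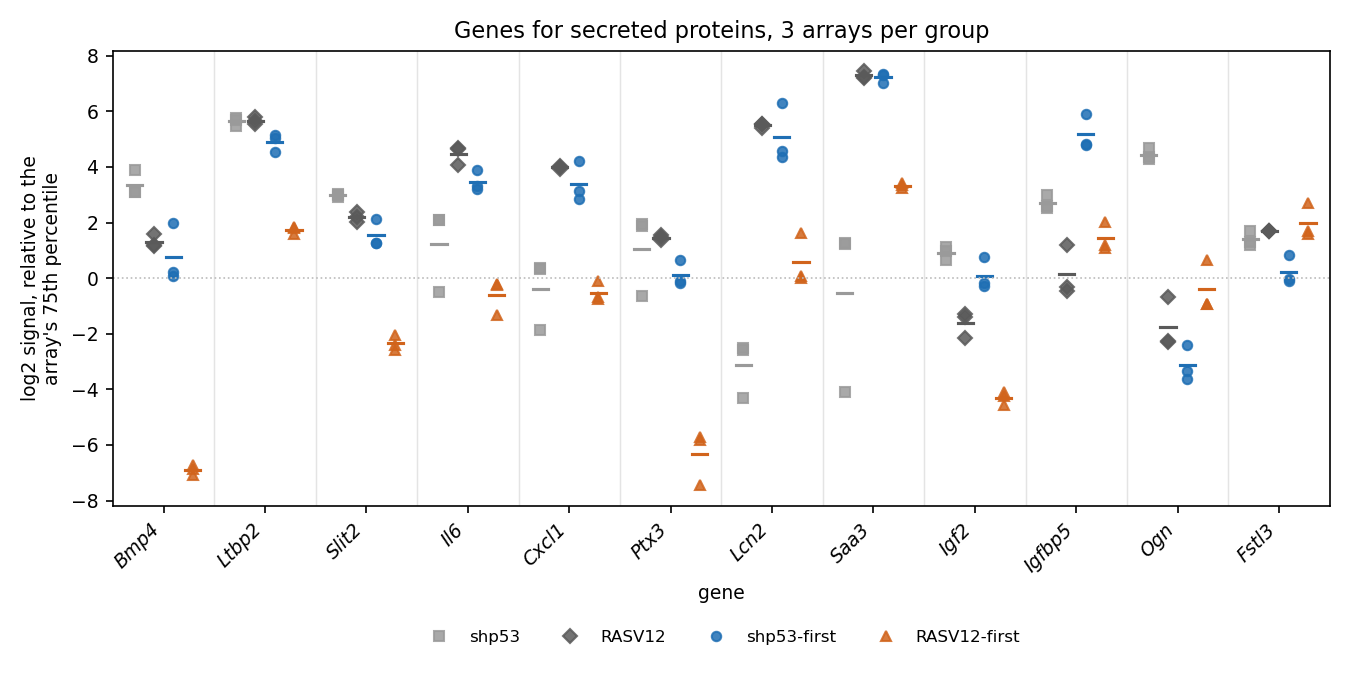
Log2 signal (vertical axis, relative to each array's 75th percentile) of 12 genes for secreted proteins on the 12 arrays; each point is 1 array and each short line the mean of a group of 3. In 10 of the 12 genes all RASV12-first arrays lay below all shp53-first arrays, and Ogn and Fstl3 were the ones that lay above.

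Matrix genes moved in both directions. Of 65 non-collagen matrix genes 12 were higher and 16 lower (median -0.01), and of 27 collagen chains 7 were higher and 3 lower (median 0.16). Of the 65, 7 had passed in shp53-first only and 1 in RASV12-first only, and of the other 57, 12 were higher and 11 lower. Of the 27 collagen chains, 2 had passed in shp53-first only and 1 in RASV12-first only, and of the other 24, 7 were higher and 1 lower. Mgp, an inhibitor of calcification, read 2.31, 1.75 and 1.71 against -1.69, -4.75 and -4.23 (-5.48 ± 0.52, adjusted p = 0.0055), Gpc3, a growth-restraining proteoglycan, was at least 19.2-fold lower and Npnt, an integrin ligand, at least 16.1-fold lower. Lama2, a laminin chain, and Lox, the enzyme that crosslinks collagen, were lower by -2.15 ± 0.15 and -1.92 ± 0.12. Ogn, a small leucine-rich proteoglycan, rose from -2.41, -3.63 and -3.35 to 0.66, -0.92 and -0.92 (2.73 ± 0.16, adjusted p = 0.0019), and Aspn, of the same family, by 2.40 ± 0.40, which was not called without number 2 (adjusted p = 0.11). Fibrillar collagens had 4 of 9 higher and 0 lower, among them Col5a3 (1.57 ± 0.13) and Col1a2 (0.66 ± 0.14), both lost without number 2 (adjusted p = 0.058 and 0.17).

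Secreted proteases and inhibitors had 11 of 45 higher and 9 lower (median 0.05). Of the 45, 2 had passed in shp53-first only and 2 in RASV12-first only, and of the other 41, 11 were higher and 6 lower. Adam33 (2.49 ± 0.20), Adamts8 (2.33 ± 0.19) and Plat, the tissue plasminogen activator (1.83 ± 0.14), were higher, and Serpine2, an inhibitor of plasminogen activators and thrombin, was lower (-3.12 ± 0.18). Of 11 matrix metalloproteinases tested 1 was higher and 1 lower, a share of 18.2% called against 20.6% of all genes tested. The lower one was Mmp9 (-0.99 ± 0.15), a call lost without number 2 (adjusted p = 0.14). All 4 genes named before Mmp9 kept their calls with any 1 replicate number left out.

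Contractile genes were the list with the largest share of higher calls among those of 12 or more tested genes: 10 of 19 higher and 1, Actn1, lower, with a median of 0.77. Cnn1, a calponin of smooth muscle, read 1.73, 2.68 and 2.43 in shp53-first and 3.70, 4.61 and 4.62 in RASV12-first (2.03 ± 0.12, adjusted p = 0.0018), and Actg2, a smooth muscle actin, was higher by 3.51 ± 0.23 (adjusted p = 0.0023). Both kept their calls with any 1 number left out. Myl9, the regulatory myosin light chain, read 3.78, 5.13 and 5.23 against 5.72, 6.45 and 6.34 (1.46 ± 0.20, adjusted p = 0.014), and Cnn2 was higher by 1.23 ± 0.19 (adjusted p = 0.018). Both lost their calls without number 2 (adjusted p = 0.097 and 0.053), and the list held 3 calls without number 2 and 4 without number 3. The difference of Actn1 was -0.51 ± 0.11 (adjusted p = 0.041, and 0.235 without number 2). The CArG box, the motif of serum response factor, a known driver of these genes, was found in the promoter window of 4 of 17 contractile genes with an entry, of which 2 of 9 were called higher and 2 of 7 not called, against 1.62% of all promoters. The stretches of Myl9 and Cnn2, the 2 higher genes that held it, are shown with the match in capitals, from the same 250 bases, build and search of both strands.
Myl9 (chr2:156775278-156775337, plus strand): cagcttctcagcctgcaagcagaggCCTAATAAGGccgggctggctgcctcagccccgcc
Cnn2 (chr10:79988519-79988578, plus strand): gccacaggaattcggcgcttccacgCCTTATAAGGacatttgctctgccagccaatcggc

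Interferon-stimulated genes, which interferons and nucleic acid sensors induce, were lower in 10 of 26 and higher in 0 (median -0.80, against 0.02 for all genes tested). Of the 26, 2 had passed in shp53-first only, and of the other 24, 8 were lower. The median log2 signal of the 27 list genes on the array was 2.85, 2.63 and 2.47 in shp53-first and 1.13, 0.99 and 1.12 in RASV12-first, with no overlap. These list medians are the values of different genes, Irf9 or Ifi44 in shp53-first and Ifi35 in RASV12-first. Their gap is therefore not the members' median difference of -0.80. Oas1a, which makes the activator of RNase L, read 3.79, 3.89 and 3.83 against -2.18, -0.17 and -0.23 (-4.69 ± 0.44, adjusted p = 0.0054), and Oas2 was lower by -4.00 ± 0.35 (adjusted p = 0.0048) with 1 RASV12-first array well above background. The Oas1 genes are near-identical copies, so a probe may read more than 1 of them. Ifi44 read 2.95, 2.63 and 2.47 against 0.46, 0.32 and 0.03 (-2.41 ± 0.11, adjusted p = 0.0010). Ifit3, Gbp3 and Gbp2, antiviral effectors, were lower by -1.20 ± 0.17, -1.06 ± 0.11 and -0.94 ± 0.12 and lost their calls without number 2 (adjusted p from 0.081 to 0.13), which left 3 calls on the list; without number 3 there were 5. In the fits over all 12 arrays 1 of the 26 was called. The 3 arrays of RASV12 alone read -1.15, 1.89 and -1.21 in the median of the list, a wider spread than in either order.

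The interferon-stimulated response element, searched as GAAA, 2 bases of any kind and GAAA on both strands in the 250 bases before each RefSeq start, was in 3.46% of all 27025 promoters and in 10 of 21 interferon-stimulated genes with an entry. Of the genes called lower 5 of 7 held it, and of those not called 5 of 14. The 5 called lower included Oas1a and a near-identical Oas1 copy, whose letters around the matches were the same. That copy had passed the filter in shp53-first only. Stretches of the 4 named genes that held it are shown, with matches in capitals, so that their number and spacing can be read. Overlapping matches were counted separately and merged in the capitals. Ifit3, Oas1a and Gbp3 held 2 matches each and Gbp2 1.
Ifit3 (chr19:34583348-34583441, plus strand): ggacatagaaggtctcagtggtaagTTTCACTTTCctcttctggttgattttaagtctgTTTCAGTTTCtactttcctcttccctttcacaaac
Oas1a (chr5:120907526-120907570, minus strand): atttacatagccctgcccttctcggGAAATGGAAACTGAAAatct
Gbp3 (chr3:142559974-142560039, plus strand): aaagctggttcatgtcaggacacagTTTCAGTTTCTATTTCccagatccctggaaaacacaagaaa
Gbp2 (chr3:142620579-142620638, plus strand): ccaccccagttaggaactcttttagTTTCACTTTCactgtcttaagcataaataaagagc

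Genes of mitosis were higher in 8 of 23 and lower in 0, with a median of 0.49 and 0.89 as the largest difference of a member. The median log2 signal of the list was -0.08, 1.72 and 1.70 in shp53-first and 0.46, 1.88 and 2.10 in RASV12-first. Replicate number 1 of both orders was lower than numbers 2 and 3, and within each number RASV12-first was higher. Bub1b, a spindle checkpoint kinase, was higher by 0.89 ± 0.11 (adjusted p = 0.011), Cenpe, a kinetochore motor, by 0.71 ± 0.13, and Aurka, a spindle pole kinase, by 0.70 ± 0.14. The list held 0 calls by limma without the block, without number 2, without number 3 and in the fits over 12 arrays, and 6 without number 1; each of these 3 genes missed the threshold without number 2 (adjusted p from 0.11 to 0.17). Of 27 DNA replication genes 2 were higher and 0 lower (7.41% called, against 20.6% of all genes tested). Of 26 genes that report RAS-ERK signals 5 were higher and 2 lower (26.9% called, median 0.09). Dusp4, a phosphatase induced by ERK, was higher by 2.04 ± 0.33, the ETS factor Etv4 by 1.02 ± 0.17 and Dusp6 by 0.57 ± 0.13, each lost without number 2 (adjusted p from 0.093 to 0.27). Of 27 p53 target genes 7 were higher and 5 lower (median -0.09). The death receptor Fas (-1.45 ± 0.17) and the membrane protein Perp (-2.89 ± 0.33) were lower and Gadd45a, a stress gene, higher (1.04 ± 0.14), each lost without number 2 (adjusted p from 0.068 to 0.124).

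**Figure D3:**
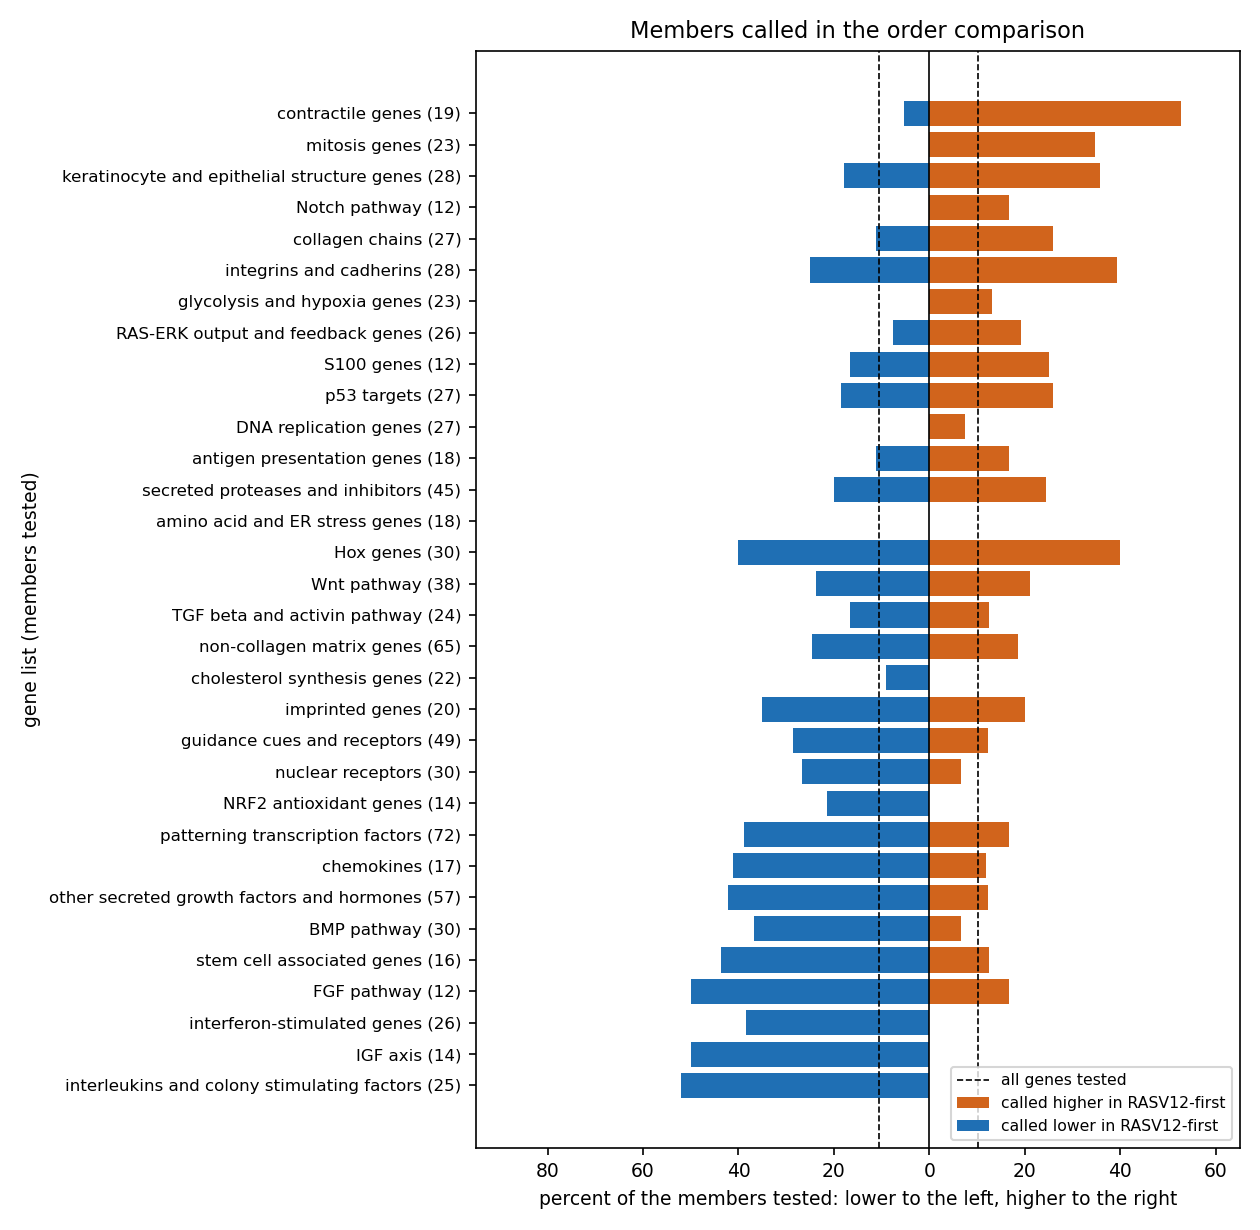
Percent of the tested members of gene lists with 12 or more tested members (vertical axis, number tested in brackets) called higher (right) or lower (left) in RASV12-first; dashed lines are the shares of all genes tested, 10.2% and 10.5%. The bars include genes that had passed the filter in 1 order only. Bars to the left only, above the dashed share, include those of interleukins, the IGF axis and interferon-stimulated genes; several lists have short bars on 1 side only, such as cholesterol synthesis (2 of 22 lower) and DNA replication (2 of 27 higher), and Hox genes have equal bars on both sides.

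The agreement between the close arrays and the third of each order was examined in the differences within a replicate number, which share no array. Across 13384 genes with all 3 differences, r was 0.913 between numbers 2 and 3, 0.816 between 1 and 2, and 0.766 between 1 and 3, across genes that are not independent replicates. Of 448 genes at least 2-fold higher in RASV12-first on both numbers 2 and 3, 421 (94.0%) had the same sign on number 1 and 311 (69.4%) were also at least 2-fold higher there. Of 990 genes at least 2-fold lower on both, 944 (95.4%) had the same sign and 744 (75.2%) were at least 2-fold lower. For genes at least 16-fold apart on both numbers, 14 of 14 higher and 115 of 115 lower genes had the same sign. Over all genes 69.8% had the same sign on number 1 as the mean of numbers 2 and 3.

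Genes that went against this agreement were picked after their values were seen. Postn, which encodes the matrix protein periostin, read 1.95, -0.99 and -1.06 in shp53-first and -0.13, 0.70 and 0.60 in RASV12-first, so that RASV12-first was lower on number 1 (-2.08) and higher on numbers 2 and 3 (1.69 and 1.66). Prg4, the joint lubricant lubricin, had differences of -0.11, 3.84 and 4.08, and Epha3, an ephrin receptor, of -0.23, 3.01 and 2.95. Krt19, a keratin, had differences of 0.36, -3.47 and -2.96. Prg4 was well above background on 2 shp53-first arrays and Krt19 on 1 RASV12-first array. None of these 4 was called. In lists, the members' median difference for cholesterol synthesis genes was 0.70 on number 1 and -0.55 and -0.50 on numbers 2 and 3, and for glycolysis and hypoxia genes 0.81 against 0.00 and 0.03. For the 18 amino acid and ER stress genes it was -0.51 against 0.15 and 0.23, with 0 calls by limma. Cholesterol synthesis genes had 0 higher and 2 lower calls of 22 (9.09%), and 12 lower calls without number 1. Glycolysis genes had 3 higher calls of 23 (13%), where 20.6% of all genes tested were called. Contractile, mitosis and interferon-stimulated genes kept 1 sign of the median on all 3 numbers.

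**Figure D4:**
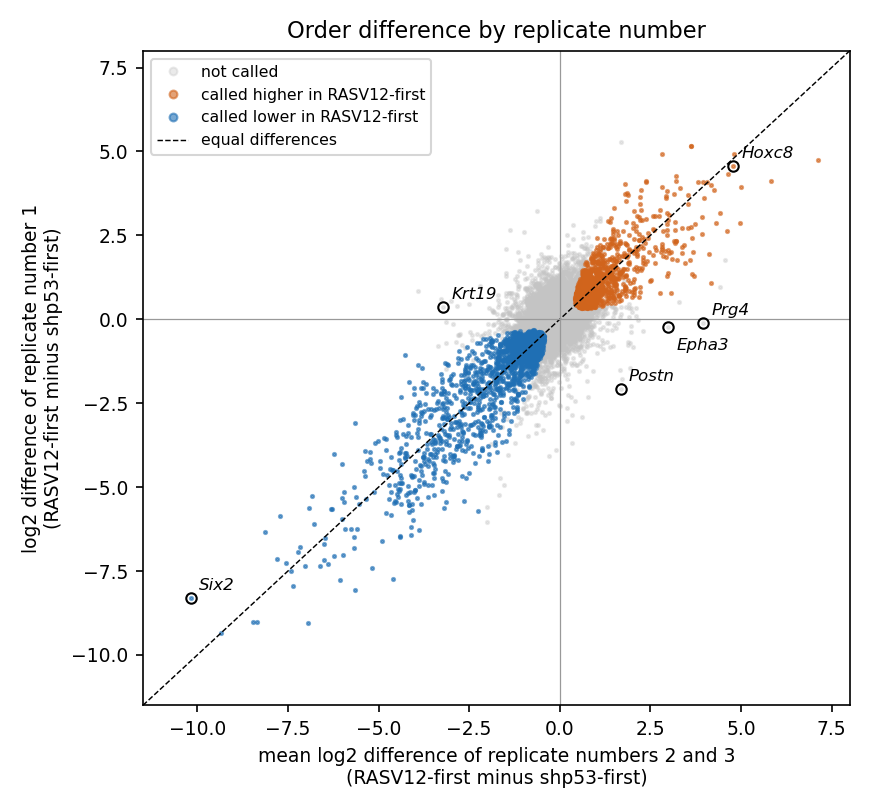
Order difference (log2, RASV12-first minus shp53-first) of replicate number 1 (vertical axis) against the mean of numbers 2 and 3 (horizontal axis), 1 point per gene, coloured by call. Over 13384 genes r was 0.808; the call itself uses all 3 numbers, and Postn, Prg4, Epha3 and Krt19 lie off the dashed line of equal differences.

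**Figure D5:**
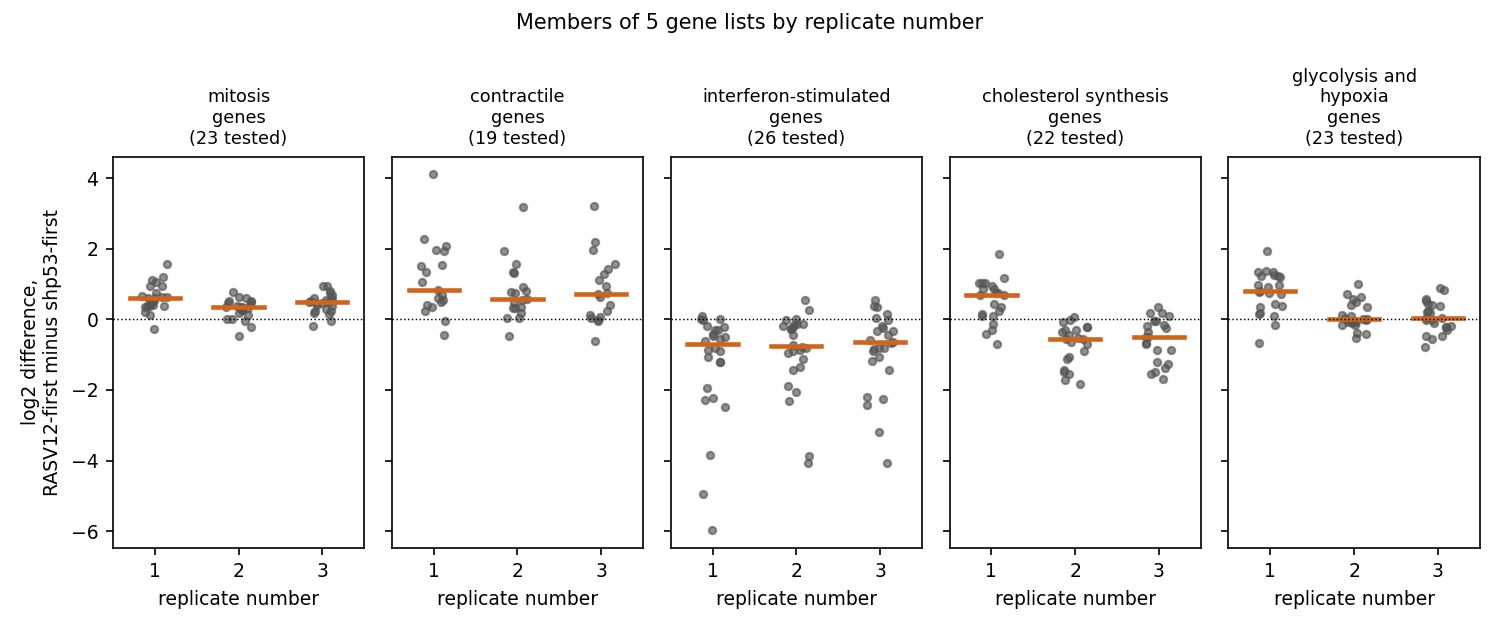
Order difference (log2) of the tested members of 5 gene lists by replicate number; each point is a gene and each bar the median of the list. The median of cholesterol synthesis genes is 0.70 on number 1 and below 0 on the others, while that of interferon-stimulated genes is below 0 on all 3 numbers.

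The order difference was set against the difference between RASV12 alone and shp53 alone, which uses none of the same arrays. Across 13420 genes r was -0.06. Of the 1365 genes higher in RASV12-first, 239 were also called higher with RASV12 alone and 236 lower, and of the 1405 lower ones 389 were called higher with RASV12 alone and 235 lower, where 14.4% and 11.3% of all genes were called. The 2 differences were unequal in 3148 genes by limma's contrast over 12 arrays (23.5%), and in 3163 without the replicate block. That block was common to all groups, although in some genes number 2, and not number 1, stood apart among single-vector arrays. With shp53 alone the macrophage marker Adgre1, for example, read 1.22, -3.30 and 1.30. Among genes for secreted proteins, Il6, Cxcl1, Lcn2 and Saa3 had their RASV12-alone means (4.47, 3.99, 5.49 and 7.30) above the shp53-first means. Six2, Hoxc8 and Nr2f1 were among the genes with both single-vector means between the orders. Such intermediate means were found in 20.4% of genes called higher and 22.1% of genes called lower, against 5.23% of genes not called, and a large order difference by itself makes them likelier. The Y-linked genes Ddx3y, Uty and Eif2s3y were well above background on all 6 order arrays and on 0 of the 6 single-vector arrays, and the reverse held for Xist, so sex and these groups cannot be told apart in the comparison with single vectors. All 6 order arrays shared this pattern.

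Cell type markers were read for the groups of the comparison. All 13 fibroblast markers were well above background on all 6 arrays, and 2 were called higher and 2 lower. The members' median difference was -0.05, and 0.12, 0.02 and -0.13 on numbers 1, 2 and 3. The median log2 signal of the list was 4.42, 4.34 and 4.25 in shp53-first and 4.15, 3.91 and 3.74 in RASV12-first. These list medians are the values of different genes, Prrx1 in shp53-first and Col1a1 or S100a4 in RASV12-first. Of 13 macrophage and leukocyte markers 5 to 7 were well above background on an array, and 0 were called by limma. Cd68, Csf1r, Cd14, Itgam and Fcer1g were well above background on all 6 arrays, and 5 markers, among them Ptprc, Adgre1, Tyrobp and Laptm5, were not on any of the 6. Of 12 epithelial markers 5 were tested, and 0 were higher and 2 lower. Of these 5, 2 had passed in shp53-first only, and of the other 3, 1 was lower. Of the 12, 6 were not well above background on any of the 6 arrays, among them Epcam, Cdh1 and Grhl2. Krt18, Cldn7 and Esrp1 were well above background on all 6. Of 10 endothelial markers 5, among them Tek, Tie1 and Sox17, were not on any array, while Kdr, Pecam1 and Flt1 were on all. Of the 5 tested 2 were higher, Cdh5 and Cldn5, the first at least 2.61-fold and not well above background on any shp53-first array, and 1 lower. Cdh5 and Cldn5 had passed in RASV12-first only, and Cldn5 was well above background on 1 shp53-first array. Of the other 3 tested, 0 were higher and 1 lower. Of 10 skeletal muscle markers 5, among them Myod1, Myog and Pax7, were not on any array. The 2 tested, the receptor subunit Chrna1 (1.54 ± 0.21, adjusted p = 0.013, with overlapping groups) and Cdh15 (2.47 ± 0.16, adjusted p = 0.0022), were both higher. The calls of Chrna1, Cdh5 and Cldn5 were lost without number 2 (adjusted p from 0.068 to 0.13). Of 12 neural and glial markers 8 were tested, and 1 was higher and 3 lower. Of the 8, 2 had passed in shp53-first only: Stmn2 and Nefl, cytoskeletal genes of neurons. They were at least 18.7-fold and 12.3-fold lower in RASV12-first, the first not called without number 2 (adjusted p = 0.067). Of the other 6, 1 was higher and 1 lower. The part of any of these markers in the other differences was not tested. In RNA from whole cultures fewer cells of a type and less RNA per cell cannot be told apart.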

How the data were processed

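RNA of 12 cultures was labelled in 1 colour and hybridised to mouse whole-genome arrays, 3 per group. The deposited scanner files hold processed intensity per spot, background-subtracted by Agilent Feature Extraction 11.5.1.1 per the file headers (the submitters' processing notes give 10.7.3.1), and the authors' other columns are deposited spot flags (outlier, saturated, well above background). The authors also deposited a log2 value table, whose normalization is not given in the sources used here; it was an alternative only (column medians -0.007 to 0.166, r with the rebuilt values 0.990 to 1.000).

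Outlier spots were left out, spots of a probe averaged, and the log2 intensity set relative to the array's 75th percentile over the spots that are not controls. Probes were named through RefSeq accessions: 28330 of 39429 had 1 gene name and 11099 none. A probe was kept where it was well above background on every array of 1 order or both, and a gene took its brightest kept probe. limma 3.58.1 in R 4.3.3 fitted the 6 arrays with the replicate number as a block. In 36 genes a pair was missing and the other pairs were used. Number, slide and scan were the same, each group had 1 fixed position on every slide, so position and group cannot be told apart, and the deviations of same-numbered arrays correlated (r = 0.637, 0.528 and 0.391). Between numbers 2 and 3 across the orders r was 0.558 and 0.480, so these deviations set number 1 apart and do not pair 2 with 2 and 3 with 3; that pairing comes from the slides. An exact permutation test of 3 against 3 cannot go below 0.1. On simulated data, 101 of 13384 genes were changed 2-fold and 99 were changed 4-fold, and 22.8% and 63.6% of these were called. Far fewer genes were changed there than the 2770 called here, so these shares are not recovery rates for this comparison.

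The members, lists and tests were chosen with earlier results of these data known. Named genes were the 25 highest and 25 lowest called and separated genes, up to 12 of each list, and 8 fixed genes; besides the array-agreement genes, Cdh5, Chrna1, Cldn5, Foxd2, Foxf2, Grem1, Hand2, Hoxa3, Hoxa5, Hoxa7, Hoxb5, Hoxc10, Hoxd3, Hoxd8, Id1, Id2, Id3, Irx1, Irx2, Irx3, Lif, Meox1, Mmp9 and Tbx5 fall outside this and were chosen after their values were seen. Alternatives were other background corrections, scalings, filters, probe rules, sample sets, replicate blocks and left-out replicate numbers, and 4 for the agreement of arrays, which were chosen after seeing the data. Promoters came from RefSeq (GRCm38.p6). Some genes are not reported here.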

Additional observations from a re-analysis of the deposited data

How the results depend on the processing

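The 2770 calls over all genes fell to 1351 with no replicate block, 593 with normexp at offset 50, 1012 with no filter on dim probes, 993 with numbers 2 and 3 averaged, 1416 with a 2-fold limit as well and 912 at an adjusted p under 0.01, and ranged from 540 to 3934 with 1 replicate number left out. Calls among the list members fell from 412 of 969 to 242, 181, 216, 219, 300 and 203 under the same settings, and ranged from 135 to 544. The genes unequal between the order difference and the single-vector difference ranged from 673 to 2413 with 1 number left out, against 3148. The 94.9% of genes with the same sign on number 1 became 96.9% with normexp after extreme local backgrounds were replaced. With normexp at offset 50 the differences of Hoxc10, Hoxd10, Hoxd11 and Hoxd3 turned to 0.045, 0.52, 0.38 and 0.30. The cause of these changes was not tested. Other scalings, flagged spots, probe rules, the fits over 12 arrays and the deposited table kept the count of calls within 1.5 times. The number of arrays and signal near background limit the lower-bound folds. On simulated data, in which far fewer genes were changed than were called here, 2-fold changes were recovered less often than 4-fold ones.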

Other observations

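Genes of the skin barrier were called in both directions: of 28 tested keratinocyte and epithelial structure genes 10 were higher and 5 lower in RASV12-first, and of the 19 that encode the cornified envelope 9 were higher and 2 lower. Of these 19, 3 had passed in RASV12-first only and 1 in shp53-first only. Of the other 15, 7 were higher and 2 lower. Sprr1a, a small proline-rich envelope protein, read 0.55, -0.29 and -0.18 in shp53-first and 4.84, 2.91 and 3.02 in RASV12-first (3.56 ± 0.26, adjusted p = 0.0031), and Sprr2e was higher by 1.82 ± 0.12. Pkp2, a desmosome plakophilin, was higher by 2.01 ± 0.11 (adjusted p = 0.0017), and Ivl, the envelope protein involucrin, was lower by -2.28 ± 0.48 (adjusted p = 0.039, and 0.104 without number 2). Of 12 epithelial markers, Epcam, Cdh1 and Grhl2 were among 6 not well above background on any of the 6 arrays, and Krt18, Cldn7 and Esrp1 were on all. Adhesion receptors were called in 18 of 28, with 7 of 18 integrins higher and 3 lower. Of the 28, 5 had passed in shp53-first only and 3 in RASV12-first only. Of the other 20, 8 were higher and 2 lower. Itga2, a collagen receptor chain, read -3.85, -5.73 and -5.95 against 0.10, -1.04 and -0.66 (4.65 ± 0.28, adjusted p = 0.0020), with 2 shp53-first arrays well above background, while Itga9 (-4.06 ± 0.18, with 1 RASV12-first array well above background) and Itga3 (-2.33 ± 0.15) were lower. Cdh6, a cadherin of kidney and neural crest, was lower by -6.63 ± 0.40, with 2 RASV12-first arrays well above background, and Cdh15, a muscle cadherin, higher by 2.47 ± 0.16.

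Imprinted genes, read from 1 parental copy, were higher in 4 of 20 and lower in 7. Besides Igf2, Peg3 read 2.70, 1.77 and 1.70 against 0.05, -1.43 and -1.29 (-2.95 ± 0.15, adjusted p = 0.0014), and Cdkn1c, the inhibitor p57, was lower by -2.16 ± 0.14. H19, the noncoding neighbour of Igf2, was lower by -3.01 ± 0.53 (adjusted p = 0.026), a call lost without number 2 (0.145) or 3 (0.096). The noncoding Mirg went up by 2.30 ± 0.22 (adjusted p = 0.0055). Of 7 prolactin family genes tested 6 were lower and 0 higher, with Prl2c5 at 3.24, 5.49 and 5.67 against -2.85, -1.14 and -1.24 (-6.54 ± 0.19). Of the 7, 3 had passed in shp53-first only, and the other 4 were all lower. The Prl2c genes are near-identical copies, so their probes may read more than 1 gene. S100b, a calcium-binding protein of glia and fat cells, was at least 45.7-fold lower (adjusted p = 5.6e-04).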
